A study of Mus musculus with 18 samples.

Results

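Histone genes encode the proteins that wrap nuclear DNA, and 87 of the 55335 genes in the expression files of this series are histone genes by their symbols. Members were all symbols that begin with Hist1h to Hist4h, H1f, H2af or H3f, without 4 pseudogene symbols ending in -ps. The rule used names only and no measured value. The members were 14 replacement variants of H2A and H3 (H2af and H3f symbols), 10 linker histones (H1f and Hist1h1 symbols) and 63 core histones of the gene clusters (20 H2A, 18 H2B, 12 H3 and 13 H4). All 87 identifiers matched the GENCODE M21 annotation of mm10, in which Hist1h2al, H3f3c and H2afy3 are processed pseudogenes, Hist1h2aj is an unprocessed pseudogene and H3f3aos is an antisense RNA that overlaps H3f3a.

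RNA came from mouse embryos in a series on histone crotonylation, and 18 Smart-seq2 libraries were each made from 1 tube of 5 to 10 embryos. Embryos with siRNA against Echs1 (siEchs1) or control siRNA (siCon) were taken at stages labelled L2C and E2C, with 3 libraries in each of the groups siEchs1 L2C, siCon L2C, siEchs1 E2C and siCon E2C, and the labels give no strain or genotype for them. A separate experiment had 2 libraries each of early 2-cell embryos (E2C) from WT zygotes cultured with sodium crotonate, with sodium acetate, or with DMSO alone. The labels give no dose, do not spell out L2C and do not say whether replicates came from separate matings or cultures, so the p-values measure only how far these libraries differ from one another, which may be technical. Because whole embryos were pooled, fewer transcripts per embryo and a smaller contribution of some embryos or cells cannot be told apart.

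Core histones H2A, H2B, H3 and H4 form the nucleosome, and linker histone H1 binds where DNA enters and leaves it. Most core histones are made during DNA replication from clustered genes whose mRNAs end in a conserved stem-loop in place of a poly(A) tail, whereas replacement variants are made throughout the cell cycle from polyadenylated mRNAs. Oocytes store large amounts of histone mRNA and several variants of their own, and the embryo replaces these stores as its own genome becomes active at the 2-cell stage.

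Levels are FPKM, that is, fragments normalised to exon length and library size. Differences were tested as log2(FPKM + 1) with limma over all genes above a low-value filter (17652 genes in the siRNA experiment, 13789 in the treatment experiment), and genes with an adjusted p (Benjamini-Hochberg, all genes tested) under 0.05 were called. Fold changes on this scale understate those of genes with low values. Of the 87 members, 71 reached 1 FPKM in at least 1 library, 17 did so in all 18, and H2afb2 alone was listed at 0 throughout. The filter kept 59 members in the siRNA experiment (10 replacement variants, 7 linker histones, 42 clustered core histones) and 46 in the treatment experiment (8, 4 and 34). All histone genes together held 0.494% to 1.13% of the FPKM total in siEchs1 E2C, and 0.352% to 0.827% in the other groups.

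Echs1, a mitochondrial enoyl-CoA hydratase, was at 0.89, 4.32 and 4.25 FPKM in siEchs1 L2C against 38.6, 39.2 and 24.4 FPKM in siCon L2C, and at 0.71, 5.88 and 3.82 FPKM in siEchs1 E2C against 30.5, 27.5 and 32.5 FPKM in siCon E2C. Replicate 3 of siEchs1 E2C stood apart from the 2 others, with 10.3% of its FPKM total in mitochondrial transcripts against 2.82% and 1.69%, while siCon E2C held 13.1%, 17.0% and 15.7%, and results that rest on this library are also given without it. The 11 markers of oocytes and early embryos summed to 11997 to 16102 FPKM in siEchs1 L2C against 2236 to 2590 FPKM in siCon L2C, and to 5145 to 15872 FPKM in siEchs1 E2C against 8520 to 9567 FPKM in siCon E2C. Blood markers (7 genes) summed to 3.52 to 18.8 FPKM in siEchs1 L2C against 93.9 to 126 FPKM in siCon L2C, and to 2.89 to 11.7 FPKM in siEchs1 E2C against 63.0 to 82.3 FPKM in siCon E2C. In siCon these sums were mostly Hba-a1 and Hba-a2, and Hbb-bs, Hbb-bt, Alas2 and Ptprc reached at most 0.98 FPKM there. Oviduct markers (7 genes) summed to 5.46 to 37.0 FPKM in siEchs1 L2C against 129 to 191 FPKM in siCon L2C, and to 4.43 to 15.6 FPKM in siEchs1 E2C against 22.4 to 26.7 FPKM in siCon E2C. In siCon these sums were mostly Epcam, at 92.0, 169 and 177 FPKM in siCon L2C. Ovgp1, Pax8, Foxj1 and Wfdc2 reached at most 3.36 FPKM in any library. Cumulus and granulosa markers (12 genes) summed to 2.85 to 16.7 FPKM over all groups. Called at L2C were 10 of the 11 oocyte and early embryo markers, 2 of the 7 blood markers, 2 of the 7 oviduct markers and 3 of the 12 cumulus and granulosa markers, and at E2C 9, 3, 0 and 1 of them. None of the markers of blood, oviduct or oocytes was at 0 in every library, and their part in the histone results was not tested.

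The stem-loop is shown because library synthesis was primed with oligo-dT, which pairs with a poly(A) tail and not with a transcript that ends at the stem-loop. In the annotated transcripts (GENCODE M21, mm10) the consensus stem-loop of 16 bases, with all 6 pairs of its stem matched around a loop of 4 bases and read 5′ to 3′ on the sense strand, was present in 40 of the 63 clustered core histone genes and in 4 of the 6 clustered H1 genes. It was also in H2afx, alone among the 14 replacement variants, and in 48 of all 21901 protein-coding genes (0.219%). Capitals mark the arms of the stem, and the spellings below were, in order, those of 26 members including Hist2h2aa1 and Hist1h2ap, of 7 H4 genes including Hist1h4c and Hist1h4d, of 6 members including Hist1h3f, of Hist1h4b and Hist1h4j, and of H2afx.
Hist2h2aa1: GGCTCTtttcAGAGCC
Hist1h4d: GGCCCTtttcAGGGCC
Hist1h3f: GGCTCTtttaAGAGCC
Hist1h4b: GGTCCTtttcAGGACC
H2afx: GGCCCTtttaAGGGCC
The 2 other spellings, in Hist1h4i, Hist2h4 and Hist2h2ac, are not shown. Of the 40 clustered core genes with the stem-loop, 19 ended within 50 nt after it and 21 had an annotated transcript that ran further. The other 23, among them Hist1h2aa, Hist1h2ba, Hist1h2bc, Hist2h2bb and Hist1h4a, had no such sequence in their annotated transcript. For some of them hardly any sequence past the coding one is annotated, so a stem-loop there could not be found. The transcripts of Hist1h2aa, Hist1h2ba and Hist2h2bb have 390, 384 and 381 nt, of which 387, 381 and 378 nt are coding. Coding sequences were close to one another. Of the 63 clustered core genes 48 were at least 95% identical to another member and 8 were identical to one (Hist1h2ap to Hist1h2ao, Hist2h2aa1 to Hist2h2aa2 and Hist1h4n to Hist1h4m among them), so reads of such copies may have been split between them.

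Promoter sequence is shown for 6 of the genes described below, beside counts of motifs in each histone type. The 250 bases upstream of each RefSeq start site (GRCm38.p6) were searched on both strands for CCAAT, the TATA motif TATAAA, the octamer ATTTGCAT and the H1 motif AAACACA, and 77 of the 87 members had a promoter in the table. CCAAT was found in all 18 clustered H2A, all 16 clustered H2B and all 6 clustered H1 promoters, in 8 of 10 H3 and in 3 of 12 H4 promoters, against 37.5% of all 27025 promoters. ATTTGCAT was found in 7 of 18 H2A and 7 of 16 H2B promoters, and in 0 of the H3, H4 and clustered H1 promoters, against 1.81% of all promoters. AAACACA was found in 5 of the 6 clustered H1 promoters against 7.20% of all promoters, and TATAAA in 4 of 6 clustered H1, 7 of 18 H2A, 8 of 16 H2B, 4 of 10 H3 and 6 of 12 H4 promoters against 14.3%. The windows below are the 130 bases before the start site, except for Hist1h2aa, where 250 bases cover most of the stretch between this gene and its divergent neighbour Hist1h2ba. Each is written 5′ to 3′ on the strand of the named gene, capitals mark the motifs, which on the opposite strand read as their reverse complements, and no motifs overlapped in them. On mm10 the windows lie at chr6:115944801-115944930 (H1foo), chr13:23763538-23763667 (Hist1h1a), chr13:23934187-23934436 (Hist1h2aa), chr3:96269570-96269699 (Hist2h2bb), chr13:23761250-23761379 (Hist1h4a, minus strand) and chr13:23581438-23581567 (Hist1h4d), on the plus strand unless stated.
H1foo: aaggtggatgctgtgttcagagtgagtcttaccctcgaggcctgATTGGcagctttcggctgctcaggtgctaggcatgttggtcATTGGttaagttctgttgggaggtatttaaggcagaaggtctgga
Hist1h1a: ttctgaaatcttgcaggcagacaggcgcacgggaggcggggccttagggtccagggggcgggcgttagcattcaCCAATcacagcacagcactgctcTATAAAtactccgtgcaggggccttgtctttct
Hist1h2aa: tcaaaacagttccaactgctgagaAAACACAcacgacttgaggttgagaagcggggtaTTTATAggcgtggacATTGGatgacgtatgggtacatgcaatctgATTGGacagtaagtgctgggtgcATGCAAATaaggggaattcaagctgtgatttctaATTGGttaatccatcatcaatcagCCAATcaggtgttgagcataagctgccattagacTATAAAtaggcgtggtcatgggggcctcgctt
Hist2h2bb: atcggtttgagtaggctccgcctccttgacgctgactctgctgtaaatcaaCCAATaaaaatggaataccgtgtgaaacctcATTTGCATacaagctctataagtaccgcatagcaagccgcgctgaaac
Hist1h4a: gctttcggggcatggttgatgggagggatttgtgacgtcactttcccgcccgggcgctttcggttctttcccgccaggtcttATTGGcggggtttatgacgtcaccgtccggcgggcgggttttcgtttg
Hist1h4d: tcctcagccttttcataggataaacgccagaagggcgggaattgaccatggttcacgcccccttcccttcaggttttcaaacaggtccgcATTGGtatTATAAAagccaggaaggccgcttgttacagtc
The windows need not be typical of their histone type. Both H4 windows hold CCAAT, which was found in 3 of 12 H4 promoters. The Hist1h1a window holds no AAACACA, which was found in 5 of the 6 clustered H1 promoters. A match is a description of these letters and says nothing of the factors that bind there.

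Linker histones were led by H1foo, the oocyte H1, whose transcript was higher in siEchs1 embryos at both stages. The gene spans bases 115944938 to 115950236 of chromosome 6 (mm10, plus strand), in up to 6 exons. Its level was 3998, 3138 and 3561 FPKM in siEchs1 L2C against 168, 93.8 and 118 FPKM in siCon L2C. At E2C it was 4483, 6098 and 607 FPKM in siEchs1 and 587, 368 and 279 FPKM in siCon. The siEchs1 libraries lay above the siCon libraries at both stages, by a wide margin at L2C, and replicate 3 of siEchs1 E2C lay just above the highest siCon E2C library. H1foo rose with the siRNA at L2C (3566 ± 429.9 against 127 ± 38.0 FPKM, SD, n = 3 each, log2 fold change 4.84, SE 0.67, adjusted p = 0.000185) and at E2C (log2 fold change 2.70, SE 0.67, adjusted p = 0.0152). The E2C call was lost without siEchs1 E2C replicate 2 (adjusted p = 0.0661), siCon E2C replicate 2 (0.0525) or siCon E2C replicate 3 (0.0651). It was also lost with the compared libraries alone (0.0993), and stood at a log2 fold change of 3.73 without siEchs1 E2C replicate 3 (adjusted p = 5.05e-06). The L2C and E2C effects did not differ past the threshold (difference 2.14, 95% interval 0.08 to 4.20, adjusted p = 0.135).

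H1foo made up 95.6% to 96.6% of the summed linker histone FPKM in siEchs1 L2C against 47.8% to 70.1% in siCon L2C, and 82.9% to 99.4% in siEchs1 E2C against 81.6% to 89.3% in siCon E2C. Between stages H1foo was lower at L2C than at E2C in siCon, where the groups did not overlap (log2 fold change -1.67, adjusted p = 0.0551). In the fit without siEchs1 E2C replicate 3 that difference passed (adjusted p = 0.000342). In siEchs1 the stage difference was 0.48 on the log2 scale (95% interval -0.98 to 1.93, adjusted p = 0.707). Of the 11 markers of oocytes and early embryos, 7 rose as H1foo did at L2C and 3 fell. Zp2 and Gdf9, for an egg coat protein and an oocyte growth factor, rose by 4.95 and 4.35 on the log2 scale (adjusted p = 0.00162 and 0.000317). The 3 that fell were Zscan4d, Zfp352 and Obox6. They were at 10.1 to 15.2, 6.52 to 15.9 and 5.17 to 38.8 FPKM in siEchs1 L2C. In siCon L2C they were at 67.0 to 102, 148 to 210 and 277 to 613 FPKM. At E2C Zp2 and Gdf9 differed by 3.75 and 2.66 (adjusted p = 0.0208 and 0.0161), and 5 of the 11 rose and 4 fell. The 4 were Oosp1, Zscan4d, Zfp352 and Obox6. Oosp1, the highest of the 11 in siCon E2C, was at 3475, 2263 and 3363 FPKM in siEchs1 E2C against 7002, 6525 and 7506 FPKM in siCon E2C. Replicate 3 of siEchs1 E2C lay near siCon E2C for Zp2 and Gdf9. Zp2 was at 1860, 1868 and 52.4 FPKM in siEchs1 E2C against 41.2, 40.3 and 43.1 FPKM in siCon E2C. Gdf9 was at 1627, 3903 and 292 FPKM against 207, 179 and 196 FPKM. Fits without that replicate are not given for these markers.

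**Figure D1:**
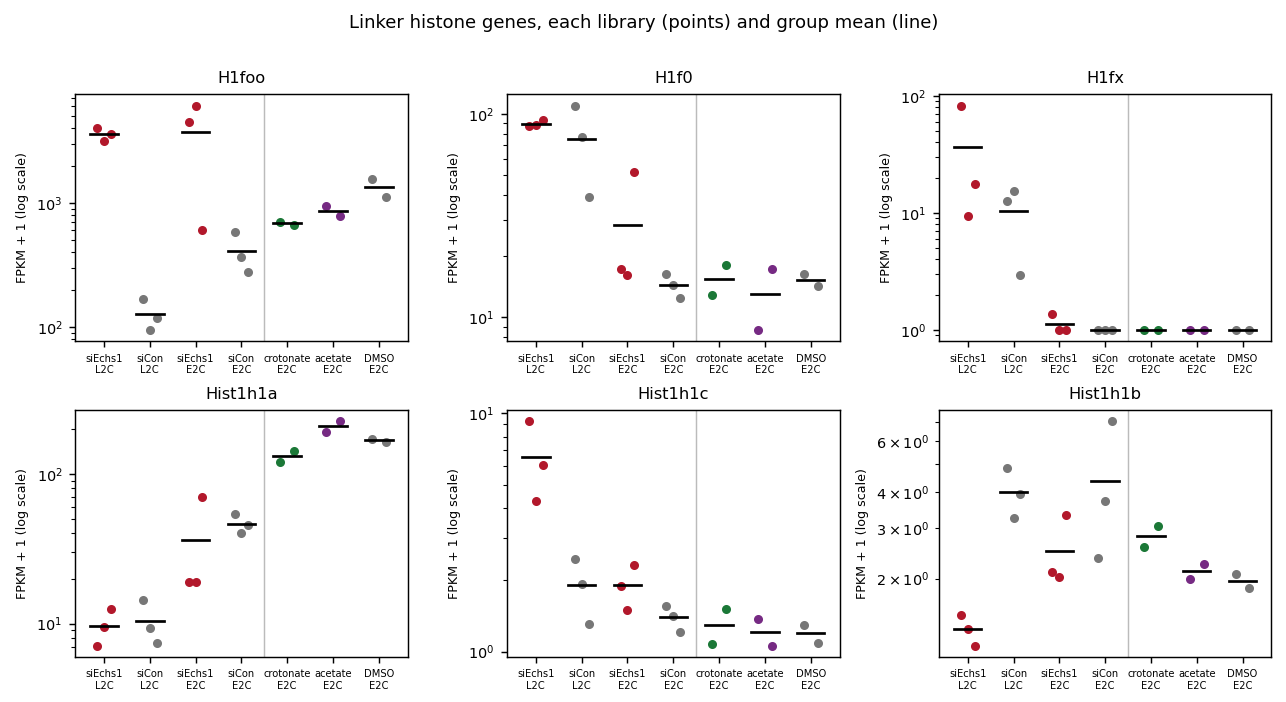
FPKM + 1 on a log axis of 6 linker histone genes, with a point for each library and a line for each group mean, in the 7 groups. H1foo stands at 3138 to 3998 FPKM in siEchs1 L2C against 93.8 to 168 FPKM in siCon L2C, while H1f0 and H1fx separate L2C from E2C in both siRNA arms.

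H1f0 and H1fx, of the somatic linker histones, were higher at L2C than at E2C in both arms. H1f0, the H1 of differentiated and resting cells, was at 85.9, 87.1 and 92.5 FPKM in siEchs1 L2C, 109, 75.7 and 38.2 FPKM in siCon L2C, 16.2, 15.2 and 50.7 FPKM in siEchs1 E2C and 15.4, 13.5 and 11.5 FPKM in siCon E2C. It was higher at L2C in siCon (log2 fold change 2.27, adjusted p = 0.00153) and in siEchs1 (1.88, adjusted p = 0.0187), and the L2C libraries lay above the E2C libraries in siCon and, except for the high siEchs1 E2C replicate 3, by a similar margin in siEchs1. The siEchs1 stage call was lost in each of the fits without 1 of siEchs1 E2C replicates 1 and 2 or siEchs1 L2C replicates 1 to 3 (adjusted p = 0.0549 to 0.0633). It was also lost with no filter on low values (0.0515), under quantile normalization (0.0758) and with the compared libraries alone (0.0936). H1fx, a widely expressed replacement H1, was at 81.8, 8.38 and 16.8 FPKM in siEchs1 L2C and 11.6, 14.5 and 1.95 FPKM in siCon L2C, against 0.38, 0 and 0 FPKM in siEchs1 E2C, and was listed at 0 in siCon E2C and in all 6 treatment libraries. It rose with stage in both arms (adjusted p = 0.00223 in siEchs1 and 0.00402 in siCon), and the siEchs1 and siCon libraries at L2C overlapped.

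Of the clustered H1 genes, Hist1h1a was the most abundant at E2C and the only one called lower at L2C than at E2C. It was at 6.13, 8.43 and 11.6 FPKM in siEchs1 L2C, 13.3, 8.34 and 6.47 FPKM in siCon L2C, 17.9, 17.9 and 69.2 FPKM in siEchs1 E2C and 52.8, 39.0 and 44.9 FPKM in siCon E2C, and every L2C library lay below every E2C library of its arm. The stage change was -2.21 in siCon (adjusted p = 0.00232) and -1.63 in siEchs1 (adjusted p = 0.0402), the second of which was lost in 13 of its 19 alternative fits. With Echs1 siRNA at L2C, Hist1h1c rose to 8.27, 3.27 and 5.1 FPKM in siEchs1 against 1.46, 0.93 and 0.31 FPKM in siCon (log2 fold change 1.76, SE 0.35, adjusted p = 0.0015). Hist1h1e rose to 2.62, 1.98 and 1.63 FPKM in siEchs1 L2C against 0.55, 0.44 and 0.34 FPKM in siCon L2C (adjusted p = 0.0157, and 0.0546 without siEchs1 L2C replicate 1). Hist1h1b fell to 0.5, 0.34 and 0.17 FPKM in siEchs1 L2C against 3.83, 2.25 and 2.93 FPKM in siCon L2C (log2 fold change -1.57, SE 0.39, adjusted p = 0.00574). Hist1h1d, Hist1h1t, a testis H1, and H1fnt, the H1 of elongating spermatids, stayed under 1 FPKM in every library.

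In all, 4 of the 7 tested linker histones were called with Echs1 siRNA at L2C (3 higher, 1 lower), where 48.8% of all genes were called, 21.9% higher and 26.9% lower. At E2C 1 of 7 was called, higher, where 20.3% of all genes were called, 11% higher and 9.31% lower. Without siEchs1 E2C replicate 3 it was 1 higher and 1 lower, and without siEchs1 E2C replicate 2 or siCon E2C replicate 2 or 3 it was 0. For L2C against E2C, 3 of 7 were called in siCon (2 higher, 1 lower), where 50.2% of all genes were called, 35.8% higher and 14.4% lower, and 4 of 7 in siEchs1 (3 higher, 1 lower), where 14.6% of all genes were called, 11.8% higher and 2.73% lower. In siEchs1 only 2 were called, both higher, without siEchs1 L2C replicate 1, 2 or 3.

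Among the replacement variants of H2A, both macroH2A genes were higher with Echs1 siRNA at L2C. H2afy encodes macroH2A, a large H2A variant enriched on silent chromatin such as the inactive X chromosome. Its level was 17.8, 16.4 and 14.1 FPKM in siEchs1 L2C against 2.17, 1.51 and 0.92 FPKM in siCon L2C, and 11.5, 11.2 and 7.67 FPKM in siEchs1 E2C against 1.22, 2.47 and 1.98 FPKM in siCon E2C. No siEchs1 library overlapped the siCon libraries of its stage. H2afy rose at L2C (log2 fold change 2.78, SE 0.32, adjusted p = 8.48e-05) and at E2C (log2 fold change 1.95, SE 0.32, adjusted p = 0.00198), and both calls held in all 19 alternative fits of each comparison. H2afy2, the second macroH2A gene, was at 3.5, 2.65 and 2.98 FPKM in siEchs1 L2C against 0.45, 0.5 and 0 FPKM in siCon L2C and rose there (log2 fold change 1.64, SE 0.27, adjusted p = 0.000487). At E2C it was at 1.38, 1.26 and 0.47 FPKM in siEchs1 and 0.19, 0.13 and 0.15 FPKM in siCon (adjusted p = 0.0592, and 0.0115 without siEchs1 E2C replicate 3). Both genes overlap others on the opposite strand (Gm47071 for H2afy, Aifm2 and Mir5108 for H2afy2), and the values keep no strand.

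H2afx, the variant phosphorylated around DNA breaks, was higher at L2C than at E2C and higher with Echs1 siRNA. It was at 152, 146 and 152 FPKM in siEchs1 L2C, 71.01, 43.9 and 88.6 FPKM in siCon L2C, 32.3, 37.2 and 9.26 FPKM in siEchs1 E2C and 5.5, 5.69 and 4.23 FPKM in siCon E2C. Neither the stages nor the siRNA groups overlapped, in either arm or at either stage. The stage change was 3.44 in siCon (SE 0.45, adjusted p = 7.43e-05) and 2.68 in siEchs1 (SE 0.45, adjusted p = 0.00255). The siRNA effect was 1.19 at L2C (adjusted p = 0.0452, up to 0.166 in the 12 alternative fits that lost it) and 1.95 at E2C (adjusted p = 0.0111, and 0.0512 without siEchs1 E2C replicate 2). With the compared libraries alone the E2C call (adjusted p = 0.0739) and the siEchs1 stage call (0.0505) were lost. H2afj, a variant known from senescent and secretory cells, was at 34.4, 25.4 and 29.1 FPKM in siEchs1 L2C, 17.3, 10.4 and 20.1 FPKM in siCon L2C, 48.8, 23.3 and 8.29 FPKM in siEchs1 E2C and 3.9, 9.11 and 10.9 FPKM in siCon E2C. It passed in no siRNA or stage comparison of the main fit (lowest adjusted p = 0.082, at E2C), and its siEchs1 E2C libraries spread more than 5-fold. The E2C difference passed without siEchs1 E2C replicate 3 (log2 fold change 2.05, adjusted p = 0.00225). It also passed after rescaling without mitochondrial and ribosomal RNA (1.65, adjusted p = 0.0278).

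The H2A.Z genes moved the other way at L2C. H2afz and H2afv encode nearly identical proteins found at promoters, and their coding sequences are 79.4% identical. H2afz was at 191, 186 and 189 FPKM in siEchs1 L2C against 778, 859 and 1126 FPKM in siCon L2C, and at 452, 222 and 252 FPKM in siEchs1 E2C against 466, 766 and 526 FPKM in siCon E2C. The 3 siEchs1 L2C libraries were close together and far below siCon L2C. H2afz fell at L2C (log2 fold change -2.26, SE 0.33, adjusted p = 0.000223), and at E2C the difference did not pass (-0.96, 95% interval -1.67 to -0.25, adjusted p = 0.0553). The E2C difference passed without siEchs1 E2C replicate 1 (-1.27, adjusted p = 0.0159) and not without replicate 3 of that group (-0.85, adjusted p = 0.0537). H2afv was at 61.5, 65.8 and 60.6 FPKM in siEchs1 L2C and 89.1, 119 and 269 FPKM in siCon L2C, without overlap (log2 fold change -1.17, SE 0.38, adjusted p = 0.0221). That call was lost without siEchs1 L2C replicate 1 (adjusted p = 0.0551) or 3 (0.0618) or siCon L2C replicate 3 (0.0825), the highest library. At E2C H2afv was at 109, 90.5 and 124 FPKM in siEchs1 and 115, 166 and 119 FPKM in siCon, which overlapped. H2afz exceeded H2afv in every library, by 2.82 to 3.13 times in siEchs1 L2C, 4.18 to 8.73 times in siCon L2C, 2.03 to 4.15 times in siEchs1 E2C and 4.05 to 4.61 times in siCon E2C.

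H3f3a and H3f3b encode the same protein, the H3 variant laid down outside replication, from coding sequences that are 76.7% identical. H3f3b, an abundant transcript, was at 501, 820.5 and 855 FPKM in siEchs1 L2C, 1005, 772 and 933 FPKM in siCon L2C, 1421, 1049.8 and 1078 FPKM in siEchs1 E2C and 1107, 1007 and 1075 FPKM in siCon E2C, and it passed in no comparison. H3f3a was at 399, 449 and 491 FPKM in siEchs1 L2C, 527, 542 and 662 FPKM in siCon L2C, 1048, 1038 and 751 FPKM in siEchs1 E2C and 1753, 2129 and 2361 FPKM in siCon E2C. The siCon E2C libraries were above all others, and no groups of the siRNA or stage comparisons overlapped. H3f3a fell with the siRNA at E2C (log2 fold change -1.14, SE 0.26, adjusted p = 0.0109) and fell with stage in siCon (log2 fold change -1.85, SE 0.26, adjusted p = 0.000132) and in siEchs1 (log2 fold change -1.07, SE 0.26, adjusted p = 0.0186). The E2C siRNA call was lost under quantile normalization (-0.58, adjusted p = 0.127) and without siCon E2C replicate 3 (adjusted p = 0.0597). With the compared libraries alone this call (adjusted p = 0.0621) and the siEchs1 stage call (0.135) were lost. The siCon stage change was -0.86 under quantile normalization (adjusted p = 0.0153), and the siEchs1 stage call was lost under quantile normalization (adjusted p = 0.05003) and without siEchs1 L2C replicate 1 (0.0792) or 2 (0.0608).

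The share of H3f3a in the sum of both genes was 35.4% to 44.4% in siEchs1 L2C against 34.4% to 41.5% in siCon L2C, and 41.1% to 49.7% in siEchs1 E2C against 61.3% to 68.7% in siCon E2C, so that siCon E2C alone held more H3f3a than H3f3b. The antisense RNA H3f3aos, whose reads cannot be told from those of H3f3a where they overlap, was at 0.05, 0.37 and 0.6 FPKM in siEchs1 L2C, 1.42, 1.53 and 0.33 FPKM in siCon L2C, 0.01, 0.03 and 0 FPKM in siEchs1 E2C and 0.05, 0 and 3.9 FPKM in siCon E2C. The pseudogene H3f3c was at 6.55, 21.02 and 25.8 FPKM in siEchs1 L2C, 5.73, 5.68 and 15.4 FPKM in siCon L2C, 8.31, 9.99 and 6.4 FPKM in siEchs1 E2C and 12.6, 14.4 and 16.8 FPKM in siCon E2C. Neither was called, and both were far below H3f3a in every siRNA library. Of the H2afb genes, for short H2A variants of the male germ line, H2afb1 reached at most 1.35 FPKM and H2afb3 0.15 FPKM, and the pseudogene H2afy3 reached 0.05 FPKM.

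**Figure D2:**
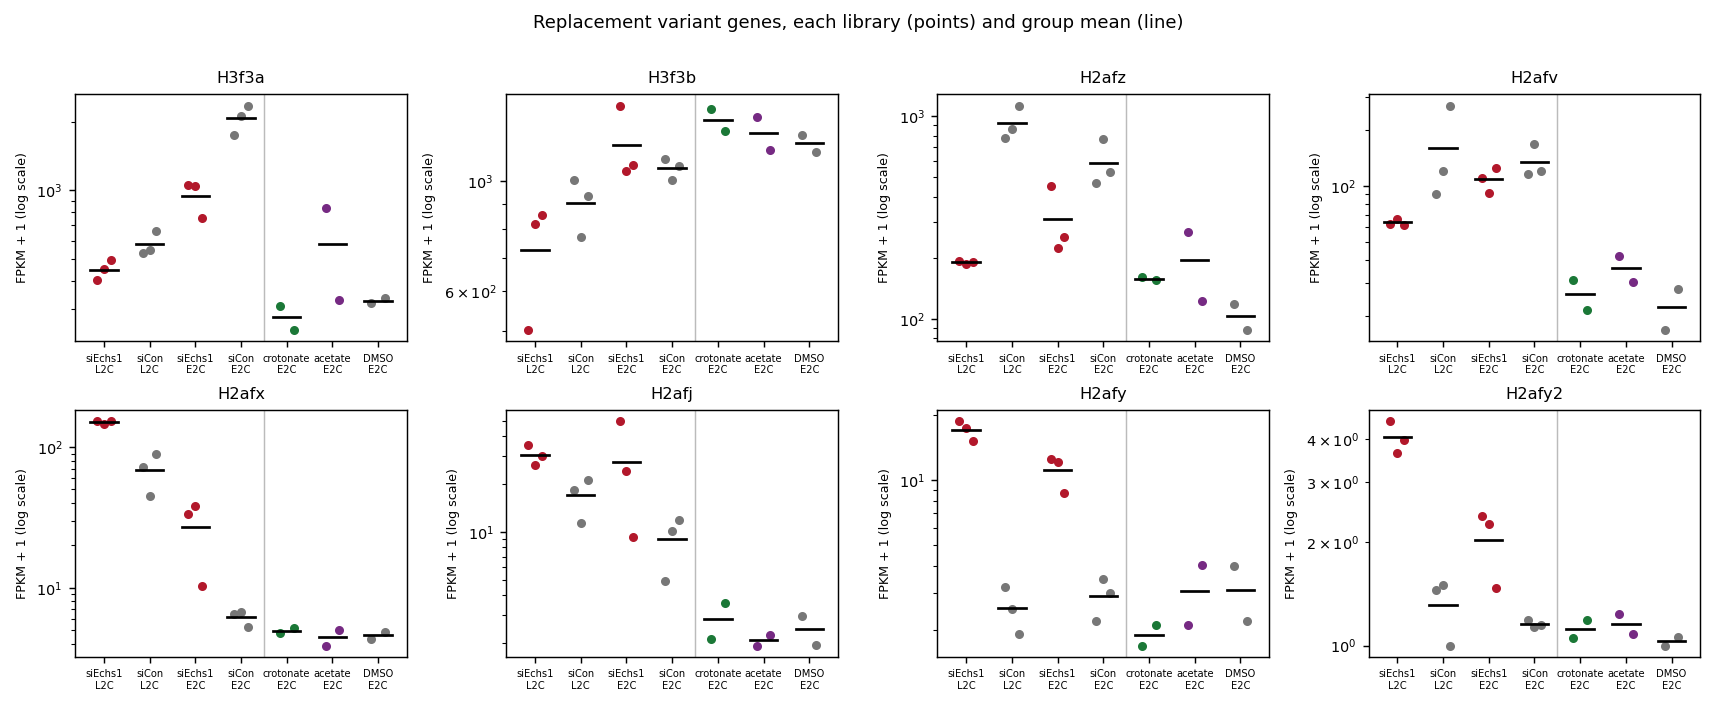
FPKM + 1 on a log axis of 8 replacement variant genes, with a point for each library and a line for each group mean, in the 7 groups. H2afy, H2afy2 and H2afx stand higher in siEchs1 than in siCon at L2C, H2afz and H2afv lower, and H3f3b changes little beside H3f3a.

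Of the 10 tested replacement variants, 5 were called with the siRNA at L2C (3 higher, 2 lower), 3 at E2C (2 higher, 1 lower), 2 between stages in siCon (1 higher, 1 lower) and 3 between stages in siEchs1 (2 higher, 1 lower). These shares of 50%, 30%, 20% and 30% stand beside 48.8%, 20.3%, 50.2% and 14.6% of all genes, so the L2C share was near that of all genes and the siCon stage share below it. Without siEchs1 E2C replicate 3, 5 were called at E2C (4 higher, 1 lower), H2afj and H2afy2 being the additions, and 4 higher and 1 lower were also called after rescaling without mitochondrial and ribosomal RNA. The L2C count was 2 higher and 1 lower without siEchs1 L2C replicate 3. The stage count was 2 higher and 3 lower in siCon under quantile normalization and 3 higher and 1 lower after rescaling, and in siEchs1 it was 1 higher and 0 lower without siEchs1 L2C replicate 1 or 2 and under quantile normalization. No replacement variant and no linker histone was called for the difference between the L2C and E2C siRNA effects, where 17.2% of all genes were called, although 3 and 2 of them had an unadjusted p under 0.05. Without siEchs1 E2C replicate 3, 2 replacement variants passed for the difference, both lower, and 1 linker histone passed, higher, and without siEchs1 L2C replicate 1, 1 replacement variant passed, higher.

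Clustered core H3 and H4 transcripts were on average highest in siCon E2C, of the siRNA groups, and low in both L2C groups. H4 genes summed to 14.8, 24.6 and 21.6 FPKM in siEchs1 L2C, 5.75, 17.7 and 19.7 FPKM in siCon L2C, 76.0, 40.6 and 68.2 FPKM in siEchs1 E2C and 178, 200.1 and 224 FPKM in siCon E2C. The siCon E2C libraries held more than 2 times the H4 sum of any other library of the siRNA experiment. H3 genes summed to 13.9 to 24.0 FPKM in siEchs1 L2C, 8.49 to 22.0 FPKM in siCon L2C, 16.6 to 49.5 FPKM in siEchs1 E2C and 49.3 to 71.4 FPKM in siCon E2C. H2B genes summed to 94.4 to 170.5 FPKM in siEchs1 L2C, 17.5 to 34.6 FPKM in siCon L2C, 107 to 399.9 FPKM in siEchs1 E2C and 167 to 214 FPKM in siCon E2C. Hist1h2bc held a large part of these sums in siEchs1 L2C and in siEchs1 E2C replicates 1 and 2. Without it the H2B sums were 61.0 to 86.3 FPKM in siEchs1 L2C, 16.2 to 32.8 FPKM in siCon L2C, 81.5 to 154 FPKM in siEchs1 E2C and 158 to 206 FPKM in siCon E2C, lower with the siRNA at E2C. The H2A sums overlapped between siEchs1 E2C (114 to 333 FPKM) and siCon E2C (287 to 673 FPKM), and were lower in siEchs1 L2C (191 to 196 FPKM) than in siCon L2C (212 to 330.4 FPKM). The L2C order turned round without Hist1h2ap, with H2A sums of 136 to 159 FPKM in siEchs1 L2C against 59.1 to 97.7 FPKM in siCon L2C, and 72.7 to 219 FPKM in siEchs1 E2C against 216 to 302 FPKM in siCon E2C. Most of these siEchs1 L2C sums came from Hist1h2al and Hist1h2aa. Hist1h2al, a processed pseudogene at base 51202727 of chromosome 13, was at 56.2 to 76.8 FPKM in siEchs1 L2C against 17.4 to 40.6 FPKM in siCon L2C. Hist1h2aa was at 35.4 to 49.3 FPKM against 2.02 to 5.35 FPKM. H2A sums without these genes were not taken, so the turned order is not shown for the other H2A genes. All clustered core genes without Hist1h2ap summed to 259 to 373 FPKM in siEchs1 L2C against 90.9 to 172 FPKM in siCon L2C, with Hist1h2al, Hist1h2aa and Hist1h2bc included.

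**Figure D3:**
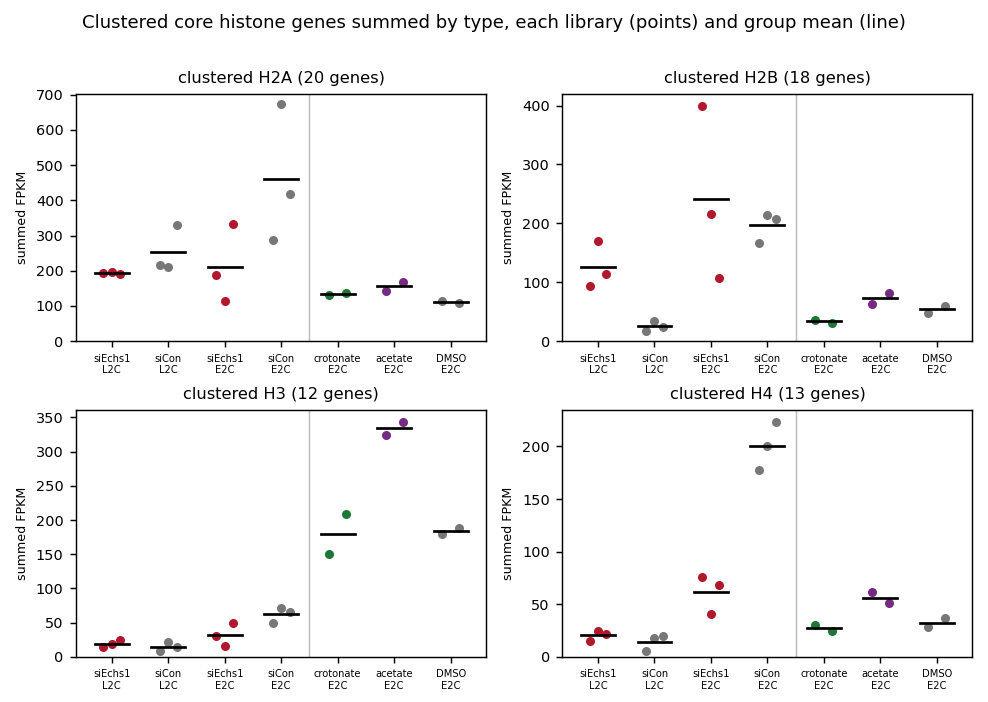
Summed FPKM of clustered H2A, H2B, H3 and H4 genes, with a point for each library and a line for each group mean, in the 7 groups on linear axes from 0. The H4 sum is 178 to 224 FPKM in siCon E2C and at most 76.0 FPKM elsewhere, and the H3 sum is 324 to 344 FPKM in the acetate libraries.

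At E2C, Echs1 siRNA lowered 14 of the 42 tested clustered core histones and raised 0, where 9.31% of all genes fell and 11% rose. Their median log2 fold change was -0.75, against 0.15 for all genes tested. The 14 were 7 of the 10 tested H4 genes (median -1.75 over the 10), 4 of 10 H2B genes (-1.003), 2 of 13 H2A genes (-0.75) and 1 of 9 H3 genes (-0.39). Without siEchs1 E2C replicate 3 the count was 20 lower and 1 higher. It was 8 to 13 lower and 0 higher in the fits without any other single library, with the fewest without siCon E2C replicate 3, and 10 to 16 lower under the other scalings. Besides siCon E2C replicate 3, the count fell to 9 without siEchs1 E2C replicate 1 or 2.

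Among H4 genes, Hist1h4a was at 16.2, 7.44 and 20.8 FPKM in siEchs1 E2C against 58.6, 75.6 and 82.8 FPKM in siCon E2C (log2 fold change -2.30, SE 0.42, adjusted p = 0.00323). Hist1h4d was at 5.98, 7.5 and 3.09 FPKM in siEchs1 E2C against 24.2, 18.8 and 23.5 FPKM in siCon E2C (log2 fold change -1.88, SE 0.34, adjusted p = 0.00318). Hist1h4n was at 1.15, 1.59 and 4.41 FPKM in siEchs1 E2C against 11.3, 27.2 and 23.8 FPKM in siCon E2C (log2 fold change -2.72, SE 0.53, adjusted p = 0.00464). In all 3 genes every siEchs1 library lay below every siCon library. Hist4h4, the single H4 gene on chromosome 6, fell as well, to 0.34, 0.19 and 1.04 FPKM in siEchs1 E2C against 2.22, 2.9 and 3.21 FPKM in siCon E2C (log2 fold change -1.34, SE 0.25, adjusted p = 0.00368). Its call was lost with the compared libraries alone (adjusted p = 0.0570). Hist1h4c was at 5.22, 1.81 and 27.3 FPKM in siEchs1 E2C, the highest of them replicate 3, against 37.5, 34.8 and 31.8 FPKM in siCon E2C (adjusted p = 0.0334). Hist1h4b fell by 1.62 on the log2 scale (adjusted p = 0.0158), and Hist1h4k, at 11.6, 0 and 17.1 FPKM in siCon E2C and at most 0.15 FPKM in siEchs1 E2C, was called (adjusted p = 0.0417) although the groups overlapped.

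Of the H3 genes, Hist1h3f fell to 6.6, 2.92 and 3.05 FPKM in siEchs1 E2C against 22.8, 25.6 and 28.2 FPKM in siCon E2C (log2 fold change -2.42, SE 0.34, adjusted p = 0.000804), the smallest adjusted p of all 59 members at this stage. Of the H2B genes, Hist1h2bj fell to 2.43, 1.41 and 7.03 FPKM in siEchs1 E2C against 12.99, 18.9 and 21.4 FPKM in siCon E2C (log2 fold change -2.19, SE 0.47, adjusted p = 0.00734), without overlap. Hist1h2bk and Hist2h2bb also fell (adjusted p = 0.0484 and 0.0296). Of the H2A genes, Hist1h2ag was at 0, 0.72 and 0 FPKM in siEchs1 E2C against 3.0, 2.73 and 4.38 FPKM in siCon E2C (log2 fold change -1.85, SE 0.32, adjusted p = 0.00258), and Hist2h2aa1 at 24.6, 9.68 and 75.8 FPKM in siEchs1 E2C against 94.7, 99.8 and 84.7 FPKM in siCon E2C (adjusted p = 0.0395).

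Hist1h2aa and Hist1h2ba, the neighbouring genes for the H2A and H2B variants of testis and oocyte, lie head to head on chromosome 13 around the window printed above. Hist1h2ba fell at E2C, to 4.09, 1.46 and 2.41 FPKM in siEchs1 against 13.5, 26.3 and 13.7 FPKM in siCon (log2 fold change -2.36, SE 0.45, adjusted p = 0.004). Hist1h2aa was at 45.3, 21.3 and 9.11 FPKM in siEchs1 E2C, spread around 32.4, 39.2 and 35.7 FPKM in siCon E2C (-0.75, 95% interval -1.78 to 0.29, adjusted p = 0.29). At L2C Hist1h2aa rose, to 40.6, 35.4 and 49.3 FPKM in siEchs1 against 2.9, 5.35 and 2.02 FPKM in siCon (log2 fold change 3.33, SE 0.48, adjusted p = 0.000208). Hist1h2ba was at 0.93, 1.68 and 3.98 FPKM in siEchs1 L2C and 0.27, 0.45 and 1.44 FPKM in siCon L2C, which overlapped (adjusted p = 0.14). The siRNA effects differed between L2C and E2C by 4.08 for Hist1h2aa (adjusted p = 0.00446) and by 3.20 for Hist1h2ba (adjusted p = 0.00824). Sperm and testis markers (11 genes) summed to 9.54 to 21.1 FPKM in siEchs1 L2C against 10.8 to 16.2 FPKM in siCon L2C, and to 28.4 to 44.5 FPKM in siEchs1 E2C against 36.5 to 78.6 FPKM in siCon E2C, 1 of them was called at each stage, lower with the siRNA, and their part in these values was not tested.

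At L2C, Echs1 siRNA changed 11 of the 42 tested clustered core histones (26.2%), 7 higher and 4 lower, a smaller share than that of all genes (48.8% called, 21.9% higher and 26.9% lower), and their median log2 fold change was 0.17 against -0.08 for all genes. The count was 6 (4 higher, 2 lower) without siEchs1 L2C replicate 2, 7 (6 higher, 1 lower) without replicate 3 of that group and 5 (4 higher, 1 lower) without siCon L2C replicate 3. Hist1h2bc rose most. It was at 33.4, 84.2 and 49.5 FPKM in siEchs1 L2C against 1.28, 1.76 and 0.96 FPKM in siCon L2C (log2 fold change 4.52, 95% interval 1.99 to 7.04, adjusted p = 0.0069). At E2C it was at 246, 134 and 2.21 FPKM in siEchs1, of which replicate 3 lay below the siCon values of 8.92, 8.17 and 14.7 FPKM (adjusted p = 0.228). Hist1h2bc spans 2 exons from 23684199 to 23692908 on chromosome 13, and its annotated transcript lacks the stem-loop.

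The small chromosome 11 cluster moved together at L2C. Hist3h2ba was at 20.6, 14.8 and 14.2 FPKM in siEchs1 L2C against 2.3, 2.12 and 2.91 FPKM in siCon L2C (log2 fold change 2.34, SE 0.37, adjusted p = 0.000366). Hist3h2a was at 1.74, 1.94 and 1.86 FPKM in siEchs1 L2C against 0.43, 0.11 and 0.15 FPKM in siCon L2C (log2 fold change 1.22, SE 0.33, adjusted p = 0.00851). Neither pair of groups overlapped. Hist2h2bb rose to 5.31, 5.85 and 5.01 FPKM in siEchs1 L2C against 1.82, 1.6 and 1.42 FPKM in siCon L2C (log2 fold change 1.29, SE 0.41, adjusted p = 0.02), although at E2C it had fallen with the siRNA. The H2A pseudogene Hist1h2al was at 63.4, 76.8 and 56.2 FPKM in siEchs1 L2C against 27.97, 40.6 and 17.4 FPKM in siCon L2C (adjusted p = 0.0286), and Hist1h4h also rose (adjusted p = 0.0413).

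The 4 that fell at L2C were Hist1h2ag, Hist1h2ao, Hist1h2ap and Hist1h2bj. Hist1h2ap, of the clustered genes the one with the highest mean in siCon L2C and in siCon E2C but not in the other groups, was at 57.96, 37.5 and 42.1 FPKM in siEchs1 L2C against 157, 114 and 263 FPKM in siCon L2C (log2 fold change -1.87, SE 0.66, adjusted p = 0.0316), and at 30.04, 41.6 and 114 FPKM in siEchs1 E2C against a wide 52.1, 371 and 203 FPKM in siCon E2C. Hist1h2ao was at 0, 1.42 and 0 FPKM in siEchs1 L2C against 5.45, 8.57 and 10.9 FPKM in siCon L2C (log2 fold change -2.75, SE 0.47, adjusted p = 0.00056). The 2 genes have identical coding sequences, so how their reads were shared out is uncertain. Hist1h2aa, Hist1h2ag, Hist1h2al, Hist1h2ao, Hist1h2ap, Hist2h2aa1, Hist2h2bb, Hist2h3b, Hist3h2a, Hist1h4b, H1f0, H1fx, H2afj and H2afx each overlap another annotated gene on the opposite strand, and the values keep no strand. On their own strand Hist1h1e overlaps Hist1h2be and Gm11398, Hist3h2a overlaps Trim17, and H1fx overlaps Gm47286. Hist2h2aa1 overlaps Gm20634 and Hist2h2bb overlaps Gm42743 in the same way, so reads of these genes may also be shared. Of the 59 tested of all 87 members, 20 were called with the siRNA at L2C (13 higher, 7 lower), 33.9% against 48.8% of all genes, and 18 at E2C (3 higher, 15 lower), 30.5% against 20.3% of all genes. Without siCon L2C replicate 3 the L2C count was 13 (10 higher, 3 lower). The E2C count was 28 (6 higher, 22 lower) without siEchs1 E2C replicate 3, 11 (1 higher, 10 lower) without siEchs1 E2C replicate 2 and 10 (2 higher, 8 lower) without siCon E2C replicate 3. With values rescaled without mitochondrial and ribosomal RNA it was 16 (5 higher, 11 lower).

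The siRNA effect differed between stages for 12 of the 42 tested clustered core histones, 11 of them more positive at L2C, where 5.65% of all genes were more positive and 11.6% more negative at L2C. Their median difference was 1.59 on the log2 scale against -0.21 for all genes. The 11 were Hist1h2aa, Hist2h2aa1, Hist1h2ba, Hist3h2ba, Hist2h2bb, Hist1h3f, Hist1h4a, Hist1h4b, Hist1h4d, Hist1h4n and Hist4h4, and the exception was Hist1h2ao. For Hist1h4a the effect was 0.46 at L2C and -2.30 at E2C, a difference of 2.76 (SE 0.59, adjusted p = 0.0113). For Hist1h3f it was 0.21 at L2C and -2.42 at E2C, a difference of 2.63 (SE 0.48, adjusted p = 0.00621). Without siEchs1 E2C replicate 3 the count was 17 more positive and 1 more negative. Several of the 11 were near 0 FPKM in siCon L2C, where a fall with the siRNA could hardly show. There Hist1h3f was at 0.57, 0.96 and 0.62 FPKM, Hist1h4d at 0.32, 1.07 and 0.43 FPKM and Hist4h4 at 0.11, 0.14 and 0.11 FPKM. For such genes the contrast cannot tell a lack of effect at L2C from a level too low to fall. It also uses the siCon E2C libraries behind the falls at E2C.

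**Figure D4:**
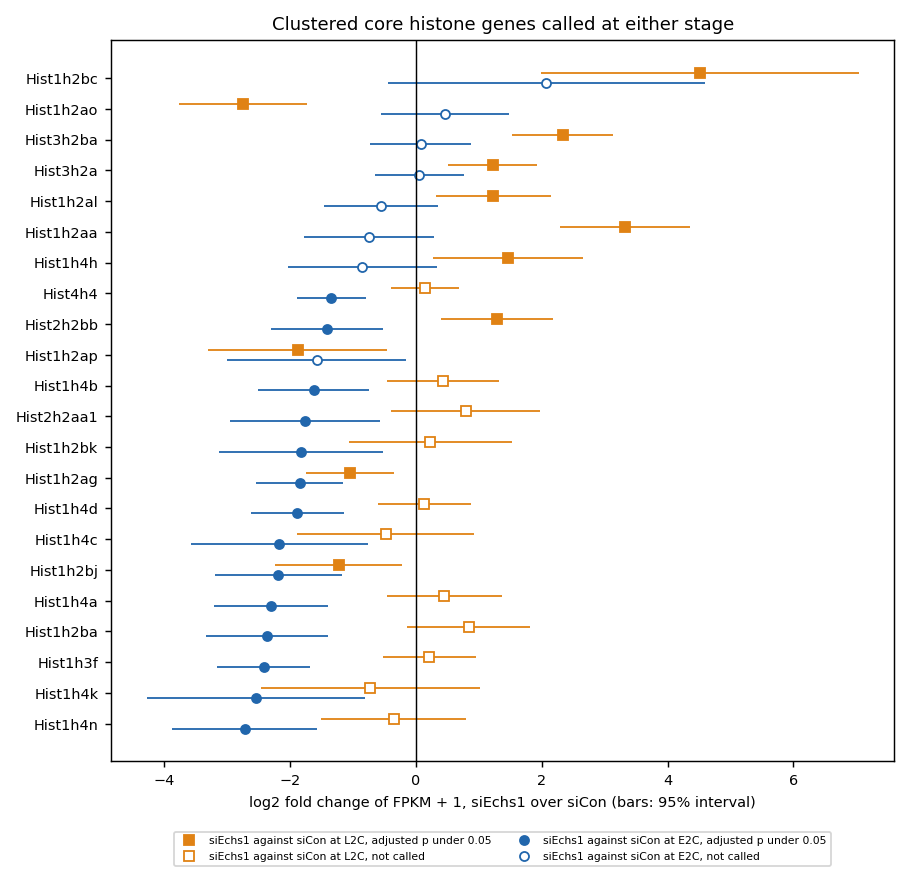
Log2 fold change of siEchs1 over siCon with 95% intervals for the clustered core histones called at either stage, L2C as squares above E2C as circles, filled where called. The E2C circles that are filled all lie below 0, and the filled L2C squares lie on both sides of 0.

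Between stages in siCon, 25 of the 42 tested clustered core histones were called, 24 lower and 1 higher at L2C, whereas 35.8% of all genes were higher and 14.4% lower. Their median log2 fold change was -1.72 against 0.51 for all genes. This stage comparison and the E2C siRNA comparison share the 3 siCon E2C libraries, so the 2 sets of values are not separate evidence. H4 genes fell in 9 of 10 cases (median -2.74), H2B genes in 6 of 10 (-2.02), H3 genes in 4 of 9 (-1.38) and H2A genes in 5 of 13 (-0.23), and the gene that rose was Hist1h2ao. The direction was the same under the other scalings, with 30 lower and 1 higher under quantile normalization and 19 lower and 1 higher after rescaling, although these moved the median of all genes to -0.01 and 0.76.

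Hist1h3f was at 0.57, 0.96 and 0.62 FPKM in siCon L2C against 22.8, 25.6 and 28.2 FPKM in siCon E2C (log2 fold change -3.95, SE 0.34, adjusted p = 6.01e-06). Hist1h4d was at 0.32, 1.07 and 0.43 FPKM in siCon L2C against 24.2, 18.8 and 23.5 FPKM in siCon E2C (log2 fold change -3.87, SE 0.34, adjusted p = 7.15e-06). Hist1h4a was at 1.66, 3.47 and 2.64 FPKM in siCon L2C against 58.6, 75.6 and 82.8 FPKM in siCon E2C (log2 fold change -4.37, SE 0.42, adjusted p = 1.04e-05), the largest fold change of the called members. In all 3 the L2C libraries were an order of magnitude below the E2C libraries. Hist2h2bb was at 1.82, 1.6 and 1.42 FPKM in siCon L2C against 42.0, 31.5 and 61.5 FPKM in siCon E2C (log2 fold change -4.09, SE 0.41, adjusted p = 1.34e-05). Hist1h2ba fell by 3.45 and Hist1h2aa by 3.12 on the log2 scale (adjusted p = 6.93e-05 and 0.0002), so both oocyte and testis variants were lower at L2C, as most called genes of the cluster were. Hist4h4 and Hist1h4n fell by 1.74 and 3.16 (adjusted p = 0.000132 and 0.000399).

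In siEchs1, 4 of the 42 (9.52%) fell between stages and 0 rose, where 14.6% of all genes were called, 11.8% higher and 2.73% lower, and the median was -0.30 against 0.23 for all genes. They were Hist1h4a, Hist1h4d, Hist1h3f and Hist2h2bb. The count was 7 without siEchs1 E2C replicate 2, 1 without siEchs1 L2C replicate 1 and 2 without replicate 3 of that group, each with 0 higher, and without siEchs1 E2C replicate 1 it was 2 higher and 2 lower. Hist1h4a was at 2.03, 5.73 and 4.47 FPKM in siEchs1 L2C against 16.2, 7.44 and 20.8 FPKM in siEchs1 E2C (log2 fold change -1.61, SE 0.42, adjusted p = 0.0234). Hist1h4d was at 0.59, 0.73 and 0.88 FPKM in siEchs1 L2C against 5.98, 7.5 and 3.09 FPKM in siEchs1 E2C (log2 fold change -1.85, SE 0.34, adjusted p = 0.00419). Hist1h3f was at 0.64, 1.55 and 0.86 FPKM in siEchs1 L2C against 6.6, 2.92 and 3.05 FPKM in siEchs1 E2C (adjusted p = 0.0222). With the compared libraries alone the calls of Hist1h4a, Hist1h4d and Hist1h3f were lost (adjusted p = 0.126, 0.0533 and 0.120). Over all members 11 were called (5 higher, 6 lower), against 5 higher and 4 lower after rescaling without mitochondrial and ribosomal RNA. The count was 4 (3 higher, 1 lower) without siEchs1 L2C replicate 1, and 6 (3 higher, 3 lower) without replicate 2 and without replicate 3 of the same group. The difference between the stage effects of the arms is the same contrast as the difference between the siRNA effects given above.

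**Figure D5:**
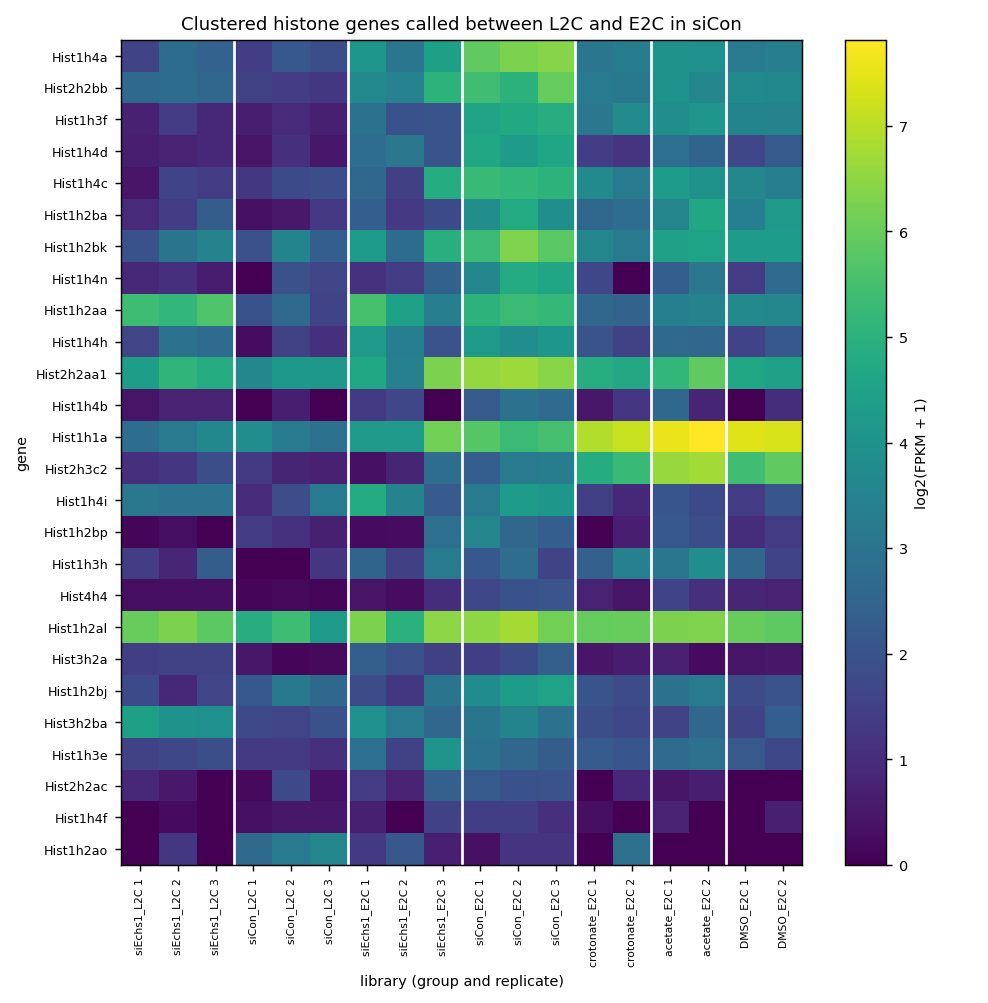
Expression of the clustered histone genes called between L2C and E2C in siCon, 1 row for each gene and 1 column for each library of the 7 groups, with the colour scale at the side. Most genes are on average highest in siCon E2C and lower in siCon L2C. Hist1h2aa and Hist3h2ba are on average highest in siEchs1 L2C, and Hist1h2ao is, of the siRNA groups, highest in siCon L2C.

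The stem-loop, as found in annotated transcripts, split the clustered core genes as follows. At E2C the siRNA lowered 10 of the 25 tested genes with it and 4 of the 17 without it, with medians of -1.58 and -0.55, where 9.31% of all genes were lower. Between stages in siCon 18 of 25 genes with it and 6 of 17 without it were lower at L2C, with medians of -1.74 and -1.70, where 14.4% of all genes were lower. At L2C the siRNA raised 3 and lowered 4 of the 25 with it, and raised 4 and lowered 0 of the 17 without it, where 21.9% of all genes were higher and 26.9% lower. Some genes counted as without it, such as Hist1h2aa, Hist1h2ba and Hist2h2bb, are annotated with hardly more than their coding sequence. The splits are therefore of annotated sequence and may not hold for the RNA itself, and they were not tested.

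In the treatment experiment no histone gene passed in any of the 3 comparisons. For crotonate against DMSO 0 of the 46 tested members were called by limma, where 0.529% of all genes were (0.21% higher, 0.319% lower), and 5 had an unadjusted p under 0.05. For acetate against DMSO 0 were called, where 0.0653% of all genes were (0.00725% higher, 0.058% lower), and 8 had an unadjusted p under 0.05. For crotonate against acetate 0 were called, where 1.86% of all genes were (1.02% higher, 0.841% lower), and 12 had an unadjusted p under 0.05. With 2 libraries in a group the intervals were wide, and a fit of the compared libraries alone called 2 for crotonate against DMSO, Hist1h2aa and H1foo. Without acetate replicate 2, 2 replacement variants were called higher with acetate than with DMSO, in a fit that takes the 1 acetate library left to vary like the other groups. The 2 comparisons with DMSO share its libraries, as the 2 with acetate and the 2 with crotonate share theirs.

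H1foo was at 698 and 667 FPKM with crotonate, 945 and 788 FPKM with acetate and 1565 and 1108 FPKM with DMSO, so that neither treatment overlapped DMSO. The difference of crotonate from DMSO was -0.95 on the log2 scale (95% interval -1.61 to -0.28, adjusted p = 0.162), and that of acetate from DMSO -0.61 (95% interval -1.27 to 0.05, adjusted p = 0.784). Leaving out acetate replicate 1 from the fit brought the crotonate value to an adjusted p of 0.0469. Hist1h2aa was at 4.99 and 4.59 FPKM with crotonate, 9.39 and 10.3 FPKM with acetate and 11.7 and 11.3 FPKM with DMSO. Its crotonate libraries lay below the others (crotonate against DMSO -1.11, 95% interval -1.84 to -0.38, adjusted p = 0.141, and 0.0409 and 0.0429 without acetate replicate 1 or 2). Hist1h2ba was at 5.06 and 5.96 FPKM with crotonate, 10.7 and 24.3 FPKM with acetate and 9.36 and 17.5 FPKM with DMSO.

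Clustered core histones summed to 347 and 400.2 FPKM with crotonate, 593 and 646 FPKM with acetate and 369.6 and 395 FPKM with DMSO. The acetate libraries were the highest for the sums of each of H2A, H2B, H3 and H4. The median log2 difference of the 34 tested clustered core genes was -0.11 for crotonate against DMSO, 0.51 for acetate against DMSO and -0.69 for crotonate against acetate, against -0.15, -0.08 and -0.09 for all genes. Hist2h3c2, an H3 gene of the chromosome 3 cluster, came closest to the threshold. It was at 27.8 and 37.5 FPKM with crotonate, 95.5 and 106 FPKM with acetate and 41.8 and 58.9 FPKM with DMSO (crotonate against acetate -1.61, 95% interval -2.33 to -0.88, adjusted p = 0.0513). Its neighbour Hist2h3b, 99.8% identical in coding sequence, was at 103 and 138 FPKM with crotonate, 199 and 195 FPKM with acetate and 115 and 109 FPKM with DMSO. With 1 acetate library left, assumed to vary like the other groups, the adjusted p of Hist2h3c2 was 0.0393 without acetate replicate 1 and 0.0395 without acetate replicate 2.

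Among H4 genes, Hist1h4d was at 1.65 and 1.3 FPKM with crotonate, 6.27 and 4.7 FPKM with acetate and 2.16 and 3.61 FPKM with DMSO (crotonate against acetate -1.38, adjusted p = 0.0936). Hist1h4a was at 7.39 and 8.81 FPKM with crotonate, 14.9 and 14.1 FPKM with acetate and 8.39 and 9.15 FPKM with DMSO (adjusted p = 0.23 for crotonate against acetate). Hist1h2bj was at 3.07 and 2.42 FPKM with crotonate, 6.59 and 8.45 FPKM with acetate and 2.46 and 3.03 FPKM with DMSO (adjusted p = 0.117 for crotonate against acetate). In each of these genes the acetate libraries were the highest. The crotonate and DMSO libraries overlapped for Hist1h4a and Hist1h2bj, and Hist1h4d was lowest with crotonate. Hist1h2ap was at 28.1 and 21.8 FPKM with crotonate, 15.2 and 15.96 FPKM with acetate and 8.32 and 12.5 FPKM with DMSO, with crotonate the highest (crotonate against DMSO 1.20, 95% interval 0.41 to 1.98, adjusted p = 0.14). Hist1h1a was at 119 and 141 FPKM with crotonate, 189 and 224 FPKM with acetate and 171 and 162 FPKM with DMSO. Hist2h2aa1, Hist1h2al and Hist1h2bc averaged 26.8, 62.2 and 0.875 FPKM with crotonate, 46.9, 76.9 and 1.84 FPKM with acetate and 22.6, 60.0 and 1.99 FPKM with DMSO.

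No replacement variant passed in a treatment comparison. H3f3b was at 1397 and 1259.8 FPKM with crotonate, 1345 and 1155 FPKM with acetate and 1237 and 1147 FPKM with DMSO (95% interval -0.44 to 0.76 for crotonate against DMSO on the log2 scale). H3f3a was at 309 and 242 FPKM with crotonate, 834 and 328 FPKM with acetate and 318 and 333 FPKM with DMSO, with acetate replicate 1 far above the rest (95% interval -1.25 to 0.75 for crotonate against DMSO). H2afz was at 159.6 and 154 FPKM with crotonate, 266 and 122 FPKM with acetate and 117 and 87.2 FPKM with DMSO, so that both treatments lay above DMSO without passing (adjusted p = 0.48 for crotonate and 0.784 for acetate). H2afv was at 30.4 and 20.4 FPKM with crotonate, 40.9 and 29.4 FPKM with acetate and 15.8 and 27.1 FPKM with DMSO. H2afx was at 3.74 and 4.13 FPKM with crotonate, 2.87 and 4.02 FPKM with acetate and 3.29 and 3.87 FPKM with DMSO. H2afj was at 1.1 and 2.55 FPKM with crotonate, 0.92 and 1.24 FPKM with acetate and 1.97 and 0.94 FPKM with DMSO. H2afv, H2afx and H2afj each overlapped between crotonate and DMSO. H2afy was at 0.7 and 1.12 FPKM with crotonate, 1.11 and 3.01 FPKM with acetate and 2.98 and 1.22 FPKM with DMSO. H1f0 was at 11.8 and 17.01 FPKM with crotonate, 7.69 and 16.3 FPKM with acetate and 15.4 and 13.2 FPKM with DMSO. H3f3c was at 0 and 4.0 FPKM with crotonate, 12.9 and 3.69 FPKM with acetate and 4.45 and 7.44 FPKM with DMSO, and H3f3aos and H2afy2 stayed below 1 FPKM in every treatment library except crotonate replicate 1, where H3f3aos was at 2.07 FPKM.

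Levels set across the experiments differ, and since the experiments were not scaled together they were not tested. Hist2h3b averaged 112 FPKM in DMSO and 9.16 FPKM in siCon E2C. Hist1h4a averaged 8.77 FPKM in DMSO and 72.3 FPKM in siCon E2C, and H3f3a 325 FPKM in DMSO and 2081 FPKM in siCon E2C. H3 genes summed to 150.6 and 208 FPKM with crotonate, 324 and 344 FPKM with acetate and 180.2 and 189 FPKM with DMSO, against 49.3 to 71.4 FPKM in siCon E2C. H3f3a made up 20.4% and 22.5% of the sum of H3f3a and H3f3b in DMSO, against 61.3% to 68.7% in siCon E2C. Both groups are labelled E2C controls.

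The machinery that makes and deposits histones was read from 2 lists. Of 22 genes for histone mRNA transcription and end processing, the siRNA raised 6 and lowered 6 at L2C and raised 3 and lowered 1 at E2C. Of 40 histone chaperones and deposition factors it raised 8 and lowered 15 at L2C, and raised 7 and lowered 2 at E2C. Of all genes 21.9% were higher and 26.9% lower at L2C, and 11% higher and 9.31% lower at E2C. Between stages in siCon 11 of the 22 and 25 of the 40 rose at L2C and 3 and 4 fell, where 35.8% of all genes were higher and 14.4% lower, and in siEchs1 5 of the 22 and 8 of the 40 rose and 1 and 0 fell, where 11.8% were higher and 2.73% lower. The E2C counts moved with the libraries. Without siEchs1 E2C replicate 3 they were 7 higher and 2 lower of the 22 and 15 higher and 8 lower of the 40. They were 1 and 3 higher and 0 lower without siEchs1 E2C replicate 2 or siCon E2C replicate 3, 1 and 2 higher without siCon E2C replicate 2 and 2 and 5 higher without siCon E2C replicate 1. In siEchs1 the stage counts were 2 and 4 higher without siEchs1 L2C replicate 1, and 13 of the 40 rose and 1 fell without siEchs1 E2C replicate 3.

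Slbp, the protein that binds the stem-loop, averaged 825 ± 122 FPKM in siEchs1 L2C against 230.1 ± 74.9 FPKM in siCon L2C (SD, n = 3 each), and rose there (1.88, adjusted p = 0.00119). At E2C it averaged 1148 ± 269.8 FPKM in siEchs1 against 507 ± 184 FPKM in siCon (1.22, adjusted p = 0.0333, and up to 0.146, without siCon E2C replicate 2, in the fits that lost the call). Eri1, an exonuclease that trims and degrades histone mRNA at the stem-loop, rose at both stages (2.33 at L2C and 2.11 at E2C, adjusted p = 0.000367 and 0.00267). Npat, the coactivator of clustered histone genes, fell at L2C (3.26 ± 1.06 against 12.4 ± 0.673 FPKM, -1.68, adjusted p = 0.000918), as did Hinfp, which binds H4 promoters (-1.40, adjusted p = 0.00634), and the cap-binding gene Ncbp1 (-3.06, adjusted p = 0.00021).

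Among the chaperones, Npm2, the oocyte nucleoplasmin, averaged 1159 ± 244 FPKM in siEchs1 L2C against 154 ± 29.6 FPKM in siCon L2C and rose (2.91, adjusted p = 7.24e-05). Chaf1a, the large subunit of the replication-coupled assembly factor, rose at L2C (1.03, adjusted p = 0.0138, 0.0615 without siEchs1 L2C replicate 1 and 0.0510 without siCon L2C replicate 1) and at E2C (1.76, adjusted p = 0.00244). Hira, which deposits the H3f3a and H3f3b protein, averaged 4.11 ± 2.23 FPKM in siEchs1 L2C against 25.4 ± 13.4 FPKM in siCon L2C and fell (-2.35, adjusted p = 0.00364). Cenpa, the centromeric H3 variant, fell at L2C (-1.72, adjusted p = 0.00252), and so did its loading factor Oip5 (-2.78, adjusted p = 0.000107) and Set (-3.48, adjusted p = 0.000139). Nasp, an H3 and H4 chaperone, was at 93.1 ± 18.9 FPKM in siEchs1 L2C and 116 ± 43.2 FPKM in siCon L2C (adjusted p = 0.495). Between stages in siCon, Npm3, Supt5, Ipo4 and Rbbp4 rose by 3.60, 3.75, 3.09 and 2.61, and Npm2 fell by 2.84 (adjusted p = 2.83e-05). In the treatment experiment Mis18a, a centromere licensing factor, was the only gene of the 2 lists called, lower with crotonate than with DMSO (-1.80, adjusted p = 0.0428) and than with acetate (-1.88, adjusted p = 0.0326). The DMSO call was lost with a pseudocount of 0.1 (adjusted p = 0.0529), with no filter (0.239), with the replicate block (0.0602), under the other scalings and without either crotonate or DMSO library (1 library then stands for its group), and the acetate call was lost with no filter (0.181) and without either crotonate or DMSO library. Slbp was at 733 ± 81.2 FPKM with crotonate, 1869 ± 272 FPKM with acetate and 1564 ± 31.6 FPKM with DMSO (SD, n = 2 each, adjusted p = 0.107 for crotonate against DMSO).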

How the data were processed

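RNA of 18 tubes of mouse embryos was sequenced as oligo-dT primed Smart-seq2 libraries. The authors deposited FPKM per gene and library. Adapters were trimmed with cutadapt 1.16 and reads aligned to mm10 with STAR, per the submitters' processing notes, and the STAR version, FPKM program and annotation were not given in the sources used here. FPKM hold no counts, so the depth is unknown. Values were taken as log2(FPKM + 1) and fitted with limma 3.58.1 (trend and robust options, R 4.3.3), all 12 siRNA libraries in 1 fit (genes at 1 FPKM or more in at least 3 libraries) and the 6 treatment libraries in another (in at least 2). P-values were adjusted by Benjamini-Hochberg over all genes tested. Libraries were grouped by their titles. The replicate numbers in the titles and file headers differ for siEchs1 L2C replicates 2 and 3, and those of the titles were used. No library was a copy of another (at most 0.234% of values equal).

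The members, gene lists and tests were chosen with earlier results of these data known. Named were the replacement variants and H1 genes outside the cluster with a mean of 1 FPKM or more in any group, the 8 clustered genes of highest mean FPKM, up to 8 called clustered genes of smallest adjusted p per comparison, 7 genes of the 2 pathway lists and up to 4 called ones per comparison. Others (Zp2, Gdf9, genes near the threshold or in small counts) were chosen after their values were seen. The code was tested on simulated data. Alternatives were a pseudocount of 0.1, no filter, quantile normalization, rescaling without mitochondrial and ribosomal RNA, the replicate number as a block, each library left out, and the compared libraries alone. A block by header number was added after the data were seen. Stem-loops were read from GENCODE M21 transcripts and promoters from RefSeq (GRCm38.p6).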

Additional observations from a re-analysis of the deposited data

Results flagged for a closer look

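The effect of Echs1 siRNA differed between L2C and E2C for 16 of the genes that the naming rule takes, by the limma contrast of the 2 effects, and each value here is the L2C effect minus the E2C effect on the log2 scale. Among H2A and H2B genes the difference was 4.08 for Hist1h2aa, 3.2 for Hist1h2ba, 2.7 for Hist2h2bb, 2.56 for Hist2h2aa1, 2.26 for Hist3h2ba and -3.21 for Hist1h2ao. For the H3 gene Hist1h3f it was 2.63. Among H4 genes it was 2.76 for Hist1h4a, 2.37 for Hist1h4n, 2.06 for Hist1h4b, 2.02 for Hist1h4d and 1.49 for Hist4h4. Positive values mean a more positive siRNA effect at L2C, and Hist1h2ao was the exception among these histone genes. Several, among them Hist1h3f, Hist1h4d and Hist4h4, were near 0 FPKM in siCon L2C, where a fall could hardly show. For these the contrast cannot tell a lack of effect at L2C from a level too low to fall. Of the chaperone genes, Npm2 differed by 2.27, the importin gene Ipo4 by -2.88, and the elongation factor genes Supt5 and Supt6 by -2.31 and -2.4.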

How the results depend on the processing

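Of the clustered and pathway genes, the check of single genes took mainly those of smallest adjusted p in each comparison. Called results of larger adjusted p, such as Hist1h4c, Hist1h4k and Hist1h2bk at E2C, were not in it. Of 92 called results in this check, 67 kept their call under all the alternatives run and 25 lost it under some. This share need not hold for all called genes. Of 30 not called, 10 passed under some, and 0 reversed. Counts of histone genes called stayed within 1.5 times in 113 of 130 alternatives. Leaving out single libraries gave 13 to 21 at L2C (20 with all), 10 to 28 at E2C (18), 9 to 21 for the difference of the effects (12), 24 to 35 between stages in siCon (30) and 4 to 13 in siEchs1 (11), and 0 to 2 in each treatment comparison (0). The 21 for the difference were without siEchs1 E2C replicate 3. The compared libraries alone gave 8 at E2C (1 higher, 7 lower), 1 between stages in siEchs1 and 2 for crotonate against DMSO, with fewer libraries behind the error. With no filter on low values, 6 were called between stages in siEchs1. The replicate numbers did not pair the libraries (correlations of same-numbered deviations -0.101 to 0.111 in the siRNA experiment and -0.0957 to 0.16 in the treatment experiment). With the replicate block 18 were called at L2C, 18 at E2C, 11 for the difference, 31 and 10 between stages in siCon and siEchs1, and 0 in each treatment comparison, and with the header numbers as the block, chosen after the data were seen, 17, 17, 12, 30 and 10. Quantile normalization and rescaling moved the median of all genes between stages in siCon to -0.01 and 0.76, against 0.51, and for the difference to 0.00 and -0.39, against -0.21. The files hold no counts, so what depth limits could not be set out.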
